A study of Mus musculus with 24 samples.

Results

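The 10 genes described here encode transcription factors and cofactors of blood stem and progenitor cells: Mecom, Runx1, Fli1, Tal1, Gata2, Myb, Erg, Lmo2, Lyl1 and Gfi1b. They were chosen by name, with earlier results of these data known. Each matched 1 row of the count tables, so that they made up 10 of 55414 gene identifiers. All 10 passed the filter on low counts, which left 16167 genes for testing. The data were 24 libraries of polyadenylated RNA from 32D, a mouse myeloid line from bone marrow that needs IL-3 to grow. The study asked how ac4C, a cytidine acetylation made by the enzyme Nat10, and binding of Nat10 bear on how long mRNAs last. Wild-type (WT) cells were compared with a pair of lines titled Nat10+/- KO1 and Nat10+/- KO2, whose genotype label reads Nat10 deficiency. Actinomycin D was given at 0.05 µg/ml, and each genotype gave 2 libraries after 0, 3, 6 and 9 h. The culture medium of all 12 groups held IL-3 (10 ng/ml) and 10% serum, so no group was without the cytokine. How the lines were made is not given in the sources used here. Each is 1 line, so that its genotype and any other property of that line cannot be told apart.

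These factors work on shared enhancers. Tal1 and Lyl1 are basic helix-loop-helix proteins that pair with E proteins. Lmo2 bridges such a pair through Ldb1 to a GATA factor, and Gata2 is the GATA factor among the 10 genes. Runx1 binds DNA with Cbfb, Fli1 and Erg are ETS factors, and Myb recruits the acetyltransferases Crebbp and Ep300. Gfi1b is a zinc-finger repressor that acts with Kdm1a and Rcor1. Mecom encodes the EVI1 and MDS1-EVI1 zinc-finger proteins, needed by blood stem cells and known for overexpression in myeloid leukaemia. Actinomycin D binds DNA and blocks transcription, and low doses act chiefly on RNA polymerase I. How far the 0.05 µg/ml used here stopped mRNA synthesis was not tested.

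The RefSeq promoter table, on GRCm38.p6, held 14 start sites of 8 of the genes, and Fli1 and Lmo2 had no entry. The 250 bases before the start are shown for the gene that stayed highest (Mecom, 2 starts), for one that fell most (Runx1, 2 starts), and for the starts of Tal1 and Erg that hold a GATA motif. Capitals mark matches to the GATA motif AGATAA, read on the opposite strand as TTATCT. They also mark the MYB motif AACTG, read on the opposite strand as CAGTT. Each sequence runs 5′ to 3′ on the strand of its gene.
Mecom upstream start, minus strand, chr3:30509760-30510009: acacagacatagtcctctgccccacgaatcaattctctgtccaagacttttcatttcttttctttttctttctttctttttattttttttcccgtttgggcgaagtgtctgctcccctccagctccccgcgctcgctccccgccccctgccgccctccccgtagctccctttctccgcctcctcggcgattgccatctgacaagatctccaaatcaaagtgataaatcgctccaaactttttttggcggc
Mecom downstream start, minus strand, chr3:30013205-30013454: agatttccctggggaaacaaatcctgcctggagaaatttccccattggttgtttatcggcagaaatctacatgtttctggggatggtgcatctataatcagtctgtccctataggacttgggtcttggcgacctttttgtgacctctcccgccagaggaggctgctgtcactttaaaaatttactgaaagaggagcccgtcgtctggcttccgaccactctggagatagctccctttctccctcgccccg
Runx1 upstream start, minus strand, chr16:92826075-92826324: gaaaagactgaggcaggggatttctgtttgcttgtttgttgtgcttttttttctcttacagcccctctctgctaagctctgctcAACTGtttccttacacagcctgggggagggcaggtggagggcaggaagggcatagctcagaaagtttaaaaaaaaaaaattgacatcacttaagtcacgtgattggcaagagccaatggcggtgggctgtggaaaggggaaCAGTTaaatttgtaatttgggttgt
Runx1 downstream start, minus strand, chr16:92697330-92697579: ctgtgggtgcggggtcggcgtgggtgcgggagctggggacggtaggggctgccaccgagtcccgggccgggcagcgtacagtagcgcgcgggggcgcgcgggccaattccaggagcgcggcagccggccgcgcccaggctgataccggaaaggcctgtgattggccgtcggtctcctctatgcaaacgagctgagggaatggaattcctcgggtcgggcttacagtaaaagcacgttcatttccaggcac
Tal1 upstream start, plus strand, chr4:115056176-115056425: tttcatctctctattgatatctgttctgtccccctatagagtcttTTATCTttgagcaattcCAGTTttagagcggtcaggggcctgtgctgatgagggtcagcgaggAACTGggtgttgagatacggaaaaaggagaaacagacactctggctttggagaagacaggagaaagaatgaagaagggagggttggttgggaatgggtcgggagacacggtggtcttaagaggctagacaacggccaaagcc
Erg downstream start, minus strand, chr16:95459349-95459598: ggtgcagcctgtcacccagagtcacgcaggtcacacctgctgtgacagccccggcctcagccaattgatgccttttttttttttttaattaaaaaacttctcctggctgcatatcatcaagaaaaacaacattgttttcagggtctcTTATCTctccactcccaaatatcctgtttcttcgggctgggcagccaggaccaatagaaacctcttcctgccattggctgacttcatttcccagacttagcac

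Both Runx1 windows lie before one gene and differ in composition, with 45.6% G and C and 2 CpG sites at the upstream start against 67.6% and 27 CpG sites at the downstream start. The upstream Runx1 window held MYB matches whose first letters lie at -166 and -25, counted from -1 at the last base before the start. The upstream Tal1 window held a GATA match at -205 and MYB matches at -188 and -142, and the Erg window shown held a GATA match at -103. Another Erg start, not shown, held a MYB match at -163. Over all 32851 starts in the table, windows of this length held the GATA motif in 9.99% and the MYB motif in 39.1%. On either strand the RUNX motif TGTGGT occurred in 14.0% of all windows. The E-box CAGCTG, the same on both strands, occurred in 13.0%, and the ETS motif GGAAGT in 19.7%. These 3 motifs had no match in the 14 windows of these genes. A match describes letters only, and counts per gene do not show which start was in use.

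The libraries held between 15361601 and 17338939 gene counts each, and the spread between replicate libraries was small, with a common biological coefficient of variation of 0.0206. Nat10 itself was lower at 0 h by log2 -0.12 in KO1 (adjusted p = 0.0486) and by -0.21 in KO2 (adjusted p = 0.000291, edgeR). The cell type label reads lymphoblastocytes. The 12 myeloid progenitor markers at 0 h summed to between 881 and 1018 CPM, led by Csf2rb, Csf2rb2 and Spi1. Mpo, Ctsg, Ms4a3 and Csf3r were at 0 in KO2. Above 1 CPM were 8 of the 12 in WT, 8 in KO1 and 7 in KO2, so some markers were near the floor in WT too. In KO2 7 of the 12 were lower than WT and 0 higher, where 2309 and 2438 of the 16167 genes tested were. In KO1 4 were lower and 2 higher, where 1983 and 2433 of all genes were. The 14 lymphoid markers summed to between 8.02 and 24.4 CPM at 0 h, with Cd3e, Cd3d, Rag1, Dntt and Il7r at 0 in WT. At 0 h the sum of the erythroid and megakaryocyte markers was lowest in WT (936 to 938 CPM), with KO1 at 1088 to 1114 and KO2 at 1302 to 1309. The sum of the macrophage markers at 0 h was highest in WT (110.4 and 110.5 CPM), with KO1 at 54.1 to 57.5 and KO2 at 38.3. Stromal markers at 0 h summed to 5.49 and 8.34 CPM in the WT libraries and to at most 0.439 in either line. In WT they summed to 0.342 to 0.385 CPM at 3 h and 1.22 to 1.34 at 9 h, when KO2 stood at 1.26 to 2.03. By 9 h of the drug the WT sums were 288 to 291 CPM for macrophage, 1444 to 1467 for erythroid and megakaryocyte and 613 to 618 for myeloid progenitor markers. These markers moved with genotype and with time, and their part in the results below was not tested. In such bulk libraries fewer cells of a type and less RNA per cell cannot be told apart.

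Levels are given as CPM, gene counts relative to the library size after TMM scaling, unless TPM is named. A CPM value is a share of the RNA measured, so a change over time is relative to the rest of the transcripts. ERCC spike-in RNA gives another scale, on which the median of all genes tested moved from 0 to 9 h by log2 -0.70 in WT, 0.20 in KO1 and -1.03 in KO2, against 0.13, 0.12 and 0.09 with TMM. WT libraries held 120 to 257 spike-in counts, KO1 libraries 3742 to 5780 and KO2 libraries 5339 to 13774. With so few spike-in counts in WT, that scale is less precise there. Gene counts per library were of similar size in all genotypes, so the share of spike-in RNA also differed. It was lower in every WT library than in any library of either line. Whether WT libraries and those of the lines were prepared alike was not tested. Any such difference would coincide with genotype in each comparison of a line with WT.

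Per length, Mecom was the highest of the 10 in WT cells before the drug and Runx1 the lowest. In TPM, which also divides by exon length, the WT libraries of 0 h were at 643 and 646 for Mecom, 530 and 548 for Lyl1, and 241 and 244 for Tal1. Gata2 followed at 142 and 147 TPM. Fli1, at 89.3 and 94.3 TPM, and Erg, at 90.2 and 90.8, overlapped, and no order between them could be given. Lmo2 (83.5 and 85.1), Myb (72.9 and 73.3), Gfi1b (64.0 and 70.4) and Runx1 (32.4 and 33.5 TPM) completed the order, without overlap. In KO1 the top of the order was exchanged, with Lyl1 at 623 and 635 TPM above Mecom at 578 and 585. In KO2 Mecom, at 650 and 652 TPM, again stood above Lyl1, at 631 and 644. By 9 h Mecom led in all 3 genotypes, followed by Tal1, and Runx1 stayed last at 1.14 to 1.40 TPM. TPM was computed over the full exon length of a gene. For Mecom this is 12427 bases, alternative exons included, so that the value per transcript depends on which form was made. For Runx1 it is 12025 bases. By mean CPM in WT before the drug, Runx1 (120.6) stood above Fli1 (97.3), Erg (95.4), Lmo2 (55.5) and Gfi1b (37.4). Its last place in the order thus depends on the division by length.

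**Figure D1:**
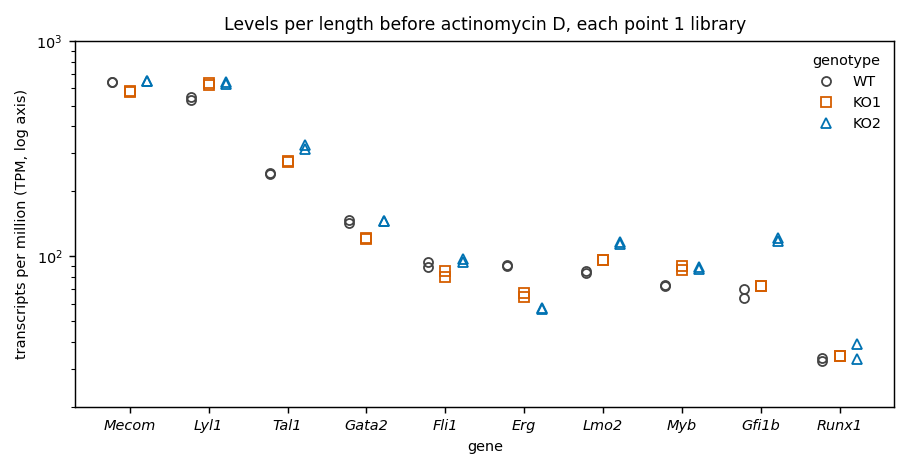
Level of each gene before actinomycin D in TPM (log axis), with 1 point per library for WT, KO1 and KO2. Mecom and Lyl1 lie at or above 530 TPM in every library and Runx1 at or below 38.9, while Gfi1b of KO2 and Erg of WT lie above the other genotypes.

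Before the drug, 7 of the 10 genes differed from WT in KO1 (4 higher and 3 lower), against 27.3% of all genes tested. In KO2 6 differed (5 higher and 1 lower), against 29.4% of all genes. Both comparisons use the same WT libraries. Tal1, Lyl1, Myb and Lmo2 were higher in both lines, and Erg was lower in both. The median over the 10 genes was log2 0.08 in KO1 and 0.17 in KO2, beside 0.01 and 0.00 over all genes. The lines differed from each other in 7 of the 10 genes (6 higher and 1 lower in KO2), against 16.8% of all genes.

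Under the drug fewer were higher than WT. At 3 h 6 differed in KO1 (all lower) and 5 in KO2 (1 higher and 4 lower). Of all genes, 36.8% and 38.7% then differed in either direction, and 2697 and 2853 of 16167 were lower. At 6 h 6 were lower in KO1 and 6 in KO2. Of all genes, 35.7% and 34.3% then differed in either direction, and 2809 and 2708 of 16167 were lower. At 9 h 6 differed in KO1 (1 higher and 5 lower) and 6 in KO2 (2 higher and 4 lower), where 34.4% and 35.2% of all genes differed in either direction. Mecom, Tal1 and Myb were lower than WT in both lines at each of these 3 times. At 3 h, leaving out the second KO2 library ended the calls of Mecom (adjusted p = 0.181), Gata2 (0.418) and Fli1 (0.1) in KO2, and leaving out the second KO1 library ended that of Gfi1b in KO1 (0.176). Each of these 4 calls also ended without 1 WT library of 3 h, the first for Gata2, the second for Mecom and Gfi1b and either for Fli1 (adjusted p between 0.0615 and 0.0932). At 6 h Gfi1b in KO1 did not pass without the second KO1 library (0.22) and Runx1 in KO1 without the first (0.0751). Without the first WT library of 6 h Runx1 (0.107) and Erg (0.103) did not pass in KO2.

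During actinomycin D the genes separated widely. In WT, 7 of the 10 had fallen and 1 had risen at 3 h, where 72.2% of all genes had changed and 33.5% had fallen. At 9 h 9 had fallen and 1 had risen, where 81.7% had changed and 38.5% had fallen. On the spike-in scale all 10 fell in WT at 3 h (63.6% of all genes changed) and at 9 h (76.9%), with Lmo2 (log2 -0.53, adjusted p = 0.000111), Mecom and Tal1 added at 3 h. In KO1 all 10 had fallen on the TMM scale at 3 h (71.3% of all genes changed, 33.4% fell) and at 9 h (80.5% and 38.3%). The 3 h fall of Mecom in KO1 was small (log2 -0.05) and did not pass without the first KO1 library of 0 h (adjusted p = 0.0504) or the second of 3 h (0.0527). In KO2 9 had fallen at 3 h (70.9% changed, 33.3% fell) and all 10 at 9 h (80.8% and 38.8%). Runx1 and Fli1 kept 4.63% and 5.26% of their 0 h CPM after 9 h in WT, whereas Mecom kept 76.2% and Tal1 stood at 117%. Of all genes tested, 0.792% had a lower log2 change than Runx1 over these 9 h in WT, and 0.965% a lower one than Fli1.

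**Figure D2:**
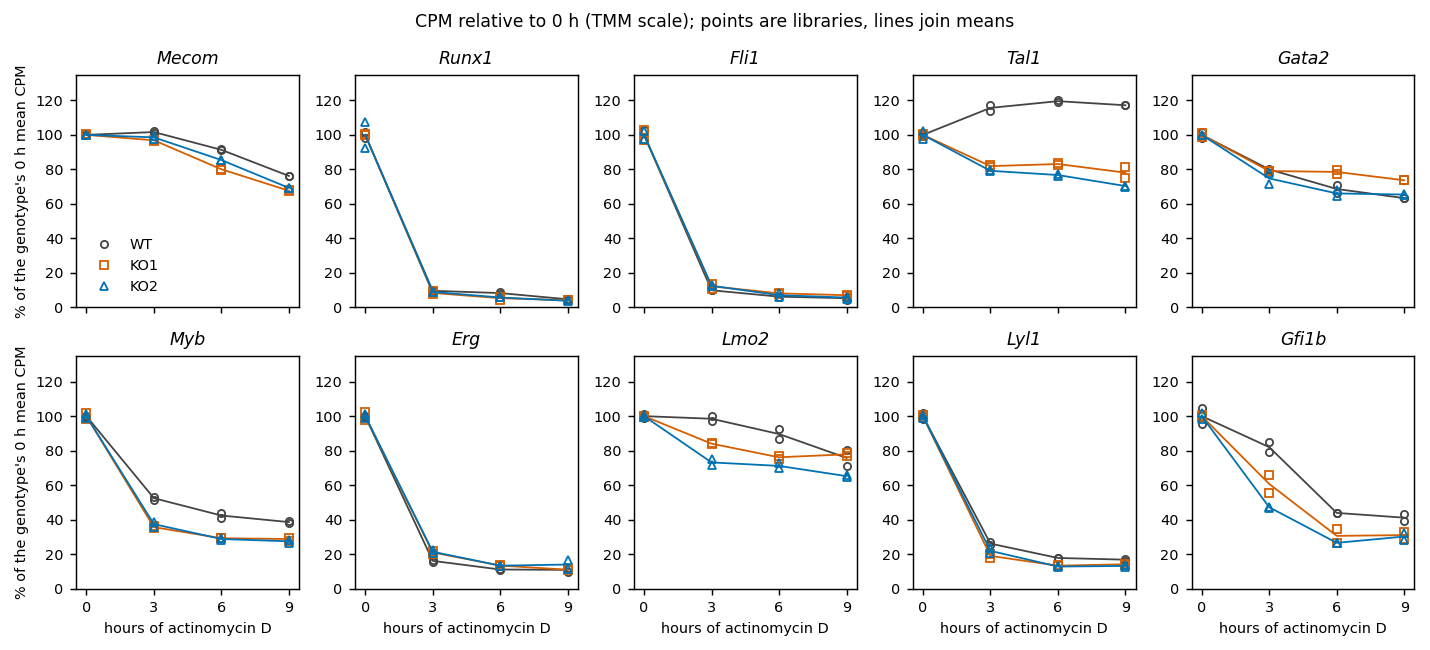
CPM of each gene at 0, 3, 6 and 9 h of actinomycin D as a percentage of the mean CPM of the same genotype at 0 h, on the TMM scale; points are libraries and lines join means. Runx1, Fli1, Erg and Lyl1 drop steeply by 3 h, Mecom, Gata2 and Lmo2 stay above 60% to 9 h, and Tal1 rises in WT and falls in both Nat10+/- lines.

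Mecom (ENSMUSG00000027684) lies on chromosome 3 from 30005445 to 30602157 on the minus strand of GRCm39. Its 0 h CPM was 2430 and 2442 in WT, 2211 and 2198 in KO1, and 2433 and 2433 in KO2. With these values it ranked 17 by CPM and 188 by TPM among the 21469 genes with a count in WT. The KO1 libraries lay below WT (log2 -0.14, SE 0.015, adjusted p = 1.87e-14), and those of KO2 lay between the WT libraries (log2 -0.002, adjusted p = 0.971). After 9 h the CPM was 1854 and 1857 in WT, 1494 and 1486 in KO1, and 1684 and 1685 in KO2. All libraries of both lines were then below WT, by log2 -0.32 in KO1 (adjusted p = 6.83e-36) and -0.14 in KO2 (adjusted p = 7.32e-14). At 3 h the WT libraries, at 2468 and 2484 CPM, had not moved beyond the test's threshold (log2 0.02, adjusted p = 0.138), though on the spike-in scale this change was -0.48. The change from 0 to 9 h differed from WT by log2 -0.17 in KO1 (adjusted p = 3.86e-11) and -0.14 in KO2 (adjusted p = 4.89e-08). Scaled by the spike-ins, these differences were 0.73 and -0.44, beside 0.91 and -0.30 for the median gene, so the direction in KO1 depended on the scale. The antisense gene Mecomos shares 81 exon bases with Mecom and held 75 to 236 counts, against 25657 to 41334 for Mecom, and counting without strand could not tell the shared reads apart.

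Tal1 and Lyl1, the related basic helix-loop-helix factors, parted during the treatment. Tal1 (ENSMUSG00000028717) lies on the plus strand of chromosome 4 from 114913623 to 114928952. Its 0 h CPM was 322 and 325 in WT, 365 and 370 in KO1, and 413 and 431 in KO2, without overlap between genotypes. It was higher by log2 0.19 in KO1 (SE 0.027, adjusted p = 1.01e-08) and by 0.38 in KO2 (SE 0.026, adjusted p = 1.62e-24). At 9 h it was at 378 and 379 CPM in WT, 276 and 298 in KO1, and 298 and 295 in KO2. The order was thus turned round, with both lines below WT at 3, 6 and 9 h, by log2 -0.31, -0.34 and -0.40 in KO1 and -0.16, -0.26 and -0.35 in KO2. These 6 differences passed the threshold, with adjusted p-values up to 2.73e-07. The rise in WT was log2 0.23 at 9 h (adjusted p = 2.22e-13) with TMM. It was -0.60 on the spike-in scale, and by TPM the WT libraries stood at 243 and 245 against 241 and 244 before. The difference in the 0 to 9 h change was log2 -0.59 in KO1 (SE 0.038, adjusted p = 1.03e-25) and -0.74 in KO2 (SE 0.037, adjusted p = 3.96e-33). On the spike-in scale it was 0.32 in KO1 (adjusted p = 0.0852) and -1.04 in KO2, both below the median gene (0.91 and -0.30).

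Lyl1 (ENSMUSG00000034041) lies on the plus strand of chromosome 8 from 85428078 to 85431569. Its 0 h CPM was 328 and 339 in WT, 392 and 388 in KO1, and 386 and 393 in KO2, so that the lines overlapped each other and stood above WT. The rise was log2 0.23 in KO1 (adjusted p = 1.12e-08) and 0.22 in KO2 (adjusted p = 9.09e-09). By 3 h the CPM had dropped to 84.0 and 89.9 in WT, 69.4 and 78.3 in KO1, and 79.7 and 90.7 in KO2. At 9 h it was 57.5 and 54.2 in WT, 56.5 and 53.3 in KO1, and 49.4 and 52.8 in KO2, and neither line passed the test against WT (adjusted p = 0.778 and 0.0619). KO2 did pass without its second library of 9 h (log2 -0.18, adjusted p = 0.041) and without the second WT library (log2 -0.17, adjusted p = 0.0493). The larger fall from the higher starting level was log2 -0.25 beyond WT in KO1 over 9 h (adjusted p = 0.00119) and -0.35 in KO2 (adjusted p = 4.47e-06). Scaled by the spike-ins, the value in KO1 was 0.66, beside 0.91 for the median gene. The ratio of Lyl1 to Tal1, in TPM, went from 2.22 at 0 h to 0.317 at 9 h in WT, from 2.28 to 0.412 in KO1 and from 1.99 to 0.371 in KO2. Lyl1 shares 229 exon bases with Nfix on the opposite strand, which held 346 to 1063 counts against 852 to 6316 for Lyl1.

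Lmo2, the bridging protein, kept 98.5%, 84.0% and 73.2% of its 0 h CPM at 3 h in WT, KO1 and KO2. At 9 h it kept 75.8%, 77.8% and 65.2%. Gata2, the GATA factor among the 10 genes, kept 80.0%, 79.0% and 74.7% at 3 h and 63.3%, 73.7% and 65.4% at 9 h. Lmo2 (ENSMUSG00000032698; chromosome 2, 103788331 to 103812223, plus strand) had a 0 h CPM of 56.1 and 55 in WT, 63.1 and 63.4 in KO1, and 74.5 and 75.5 in KO2. The 3 genotypes did not overlap, and the lines were higher by log2 0.19 in KO1 (SE 0.059, adjusted p = 0.00894) and 0.43 in KO2 (SE 0.057, adjusted p = 3.54e-10). In KO1 Lmo2 no longer passed without the second KO1 library (adjusted p = 0.0502) or the second WT library of 0 h (0.0654). At 9 h Lmo2 was at 44.7 and 39.5 CPM in WT, 49.7 and 48.8 in KO1, and 49.4 and 48.3 in KO2. Both lines were above WT at 9 h (log2 0.23 and 0.22), and without the second WT library of 9 h, the lowest, neither difference passed (0.14 and 0.13, adjusted p = 0.166 and 0.206).

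Gata2 (ENSMUSG00000015053; chromosome 6, 88170873 to 88184014, plus strand) had a 0 h CPM of 242 and 234 in WT, 197 and 201 in KO1, and 235 and 236 in KO2. It was thus lower in KO1 alone among the lines (log2 -0.26, SE 0.033, adjusted p = 2.71e-10, against -0.01 and 0.824 in KO2), and the lines differed from each other by 0.24 (adjusted p = 2.99e-09). At 9 h the libraries stood at 150 and 151 CPM in WT, 147 and 146 in KO1, and 154 and 154 in KO2. No difference from WT passed the test at 9 h (adjusted p = 0.431 and 0.513). Gata2 therefore fell less in KO1 than in WT, by a difference of log2 0.22 (adjusted p = 0.000222), which was 1.12 on the spike-in scale beside 0.91 for the median gene.

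Runx1 and Fli1 had the lowest log2 changes of the 10 genes at each time in each genotype, and Erg, the other ETS factor, came next in WT. In the lines the order of Erg and Lyl1 varied with the time, and they were at log2 -2.84 and -2.93 after 9 h in KO2 and -3.19 and -2.83 in KO1. Runx1 (ENSMUSG00000022952; chromosome 16, 92398354 to 92623037, minus strand) had a 0 h CPM of 119 and 123 in WT, 125 and 126 in KO1, and 121 and 140 in KO2. No difference from WT passed (log2 0.06 and 0.12), although KO2 did without its first library of 0 h (0.22, adjusted p = 0.015). At 3 h it was at 12.03 and 11.02 CPM in WT, 11.5 and 9.30 in KO1, and 11.8 and 11.5 in KO2. At 9 h it was at 5.83 and 5.34 CPM in WT, 5.07 and 5.26 in KO1, and 5.38 and 4.38 in KO2. The 9 h fall was log2 -4.43 in WT (SE 0.094), -4.60 in KO1 and -4.74 in KO2, and neither line differed in it from WT (adjusted p = 0.538 and 0.20). With the spike-ins as the scale the falls were -5.27, -4.52 and -5.87, and KO1 minus WT was 0.75, beside 0.91 for the median gene.

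Fli1 (ENSMUSG00000016087; chromosome 9, 32333500 to 32454157, minus strand) was at 94.7 and 99.9 CPM in WT, 89.8 and 84.9 in KO1, and 102 and 97.9 in KO2 at 0 h. At 9 h it was at 4.20 and 6.04 CPM in WT, 6.35 and 5.88 in KO1, and 6.20 and 5.04 in KO2. The genotypes overlapped at 9 h, and neither line passed the test against WT at 0 or 9 h, with log2 differences of -0.16 and 0.04 before the drug. For KO1 at 0 h this changed when only the groups compared were fitted (log2 -0.18, adjusted p = 0.00293). At 9 h KO1 passed without the second WT library (log2 0.54, adjusted p = 0.0412).

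Erg (ENSMUSG00000040732; chromosome 16, 95160028 to 95387452, minus strand) was the member with lower levels in both lines at 0 h. Its 0 h CPM was 95.8 and 95.1 in WT, 68.1 and 71.1 in KO1, and 60.01 and 58.84 in KO2. No genotype overlapped another, and the fall was log2 -0.46 in KO1 (SE 0.07, adjusted p = 6.2e-08) and -0.68 in KO2 (SE 0.071, adjusted p = 2.19e-14). Of all genes tested, 9.85% had a lower log2 difference than Erg in KO2. At 3 h Erg was at 15.8 and 14.9 CPM in WT, 15.1 and 14.1 in KO1, and 12.1 and 13.2 in KO2. At 9 h it was at 9.38 and 11.3 CPM in WT, 7.86 and 7.35 in KO1, and 6.75 and 9.80 in KO2, where KO2 overlapped WT. The KO1 difference at 9 h (log2 -0.45, adjusted p = 0.00472) was lost without the second KO1 library (0.0629) or the second WT library (0.178). The KO2 difference (-0.32, adjusted p = 0.0406) came to -0.08 without the first KO2 library (0.758) and -0.18 without the second WT library (0.456). The ratio of Erg to Fli1, in TPM, went from 0.986 at 0 h to 2.03 at 9 h in WT and from 0.598 to 1.48 in KO2, where the libraries of 9 h gave 1.09 and 1.96. In KO1 it went from 0.801 at 0 h to 1.38 at 3 h and was 1.25 at 9 h.

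Myb (ENSMUSG00000019982; chromosome 10, 21000834 to 21036883, minus strand), which sustains progenitor proliferation, followed the same turn as Tal1. Its 0 h CPM was 198 and 199 in WT, 243 and 235 in KO1, and 234 and 239 in KO2. Both lines stood above WT, by log2 0.27 (SE 0.036, adjusted p = 8.05e-10) and 0.25 (SE 0.036, adjusted p = 4.18e-09). At 3 h it was at 103 and 106 CPM in WT, 86.1 and 84.2 in KO1, and 91.9 and 84.8 in KO2. Both lines were now below WT, by log2 -0.29 (adjusted p = 5.68e-08) and -0.24 (adjusted p = 5.67e-06). At 9 h the CPM was 78.0 and 75.2 in WT, 66.6 and 70.7 in KO1, and 63.0 and 66.5 in KO2. The KO2 difference at 9 h was log2 -0.24 (adjusted p = 1.68e-05). That of KO1 was -0.16 (adjusted p = 0.00599) and did not pass without the first KO1 library (-0.11, 0.153) or the first WT library (-0.13, 0.0987). The change over the first 3 h differed from WT by log2 -0.56 in KO1 (SE 0.058, adjusted p = 5.31e-14) and -0.49 in KO2 (SE 0.058, adjusted p = 1.22e-11). On the spike-in scale the KO1 value was -0.22 (adjusted p = 0.386), with the median gene at 0.35, and over 9 h it was 0.48, with the median gene at 0.91.

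Gfi1b (ENSMUSG00000026815; chromosome 2, 28499462 to 28511994, minus strand), a repressor needed in erythroid and megakaryocyte cells, set the lines apart more than any other of the 10 at 0 h. Its 0 h CPM was 39.2 and 35.6 in WT, 40.2 and 40.6 in KO1, and 64.6 and 66.8 in KO2. Both KO2 libraries stood above all the others, by log2 0.81 against WT (SE 0.078, adjusted p = 6e-16) and 0.70 against KO1 (SE 0.078, adjusted p = 1.1e-12). KO1 against WT was 0.11 (adjusted p = 0.363). At 3 h it was at 29.5 and 31.9 CPM in WT, 26.6 and 22.4 in KO1, and 31.1 and 30.8 in KO2, with the KO2 libraries inside the range of the WT libraries. The fall in WT by 3 h (log2 -0.28, adjusted p = 0.00225) did not pass without the first WT library of 0 h (0.0694) or of 3 h (0.0528). The change over the first 3 h differed between KO2 and WT by log2 -0.80 (SE 0.119, adjusted p = 3.8e-08), and this difference passed in every setting tried. At 9 h the CPM was 14.6 and 16.1 in WT, 13.3 and 11.7 in KO1, and 21.3 and 18.3 in KO2. KO2 was above WT at 9 h by log2 0.36 (adjusted p = 0.00279), a call lost without the first KO2 library (0.119) or the first WT library (0.0672). KO1 was below WT at 9 h by log2 -0.30 (adjusted p = 0.0307), which did not pass without the second KO1 library (0.305) or the second WT library (0.251).

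**Figure D3:**
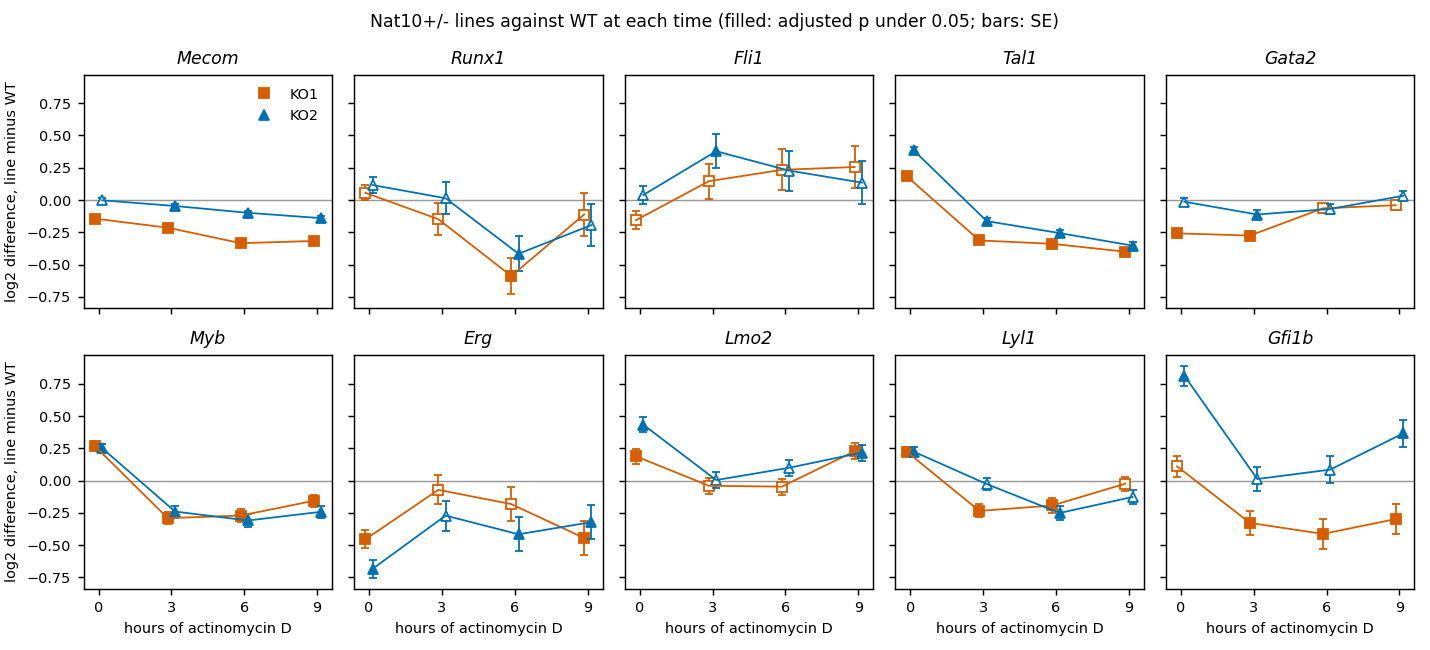
Fitted log2 difference of KO1 (squares) and KO2 (triangles) from WT at each time of actinomycin D, with bars of 1 SE and filled symbols where edgeR's adjusted p was under 0.05. Tal1 and Myb start above WT and lie below it from 3 h on in both lines, and Gfi1b of KO2 starts 0.81 above WT and lies 0.01 above it at 3 h.

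The change over time was tested against WT for each gene. Over the first 3 h it differed in KO1 for 7 of the 10 genes (1 higher and 6 lower), against 25.8% of all genes, and in KO2 for 6 (1 higher and 5 lower), against 24.7%. Over 9 h it differed for 6 in KO1 (1 higher and 5 lower; 27.1%) and for 6 in KO2 (all lower; 25.9%). Between the lines it differed for 1 gene over 3 h (5.87% of all genes) and for 3 over 9 h (7.51%). For Lmo2 the differences were log2 -0.23 in KO1 and -0.43 in KO2 over 3 h, and 0.04 and -0.22 over 9 h. The KO1 value of Lmo2 over 3 h was 0.11 on the spike-in scale (adjusted p = 0.712). For Erg they were 0.38 and 0.41 over 3 h, the only higher ones, and did not pass at 9 h (0.01 and 0.36). The KO2 value of Erg over 9 h did pass without the first KO2 library of 9 h (0.61, adjusted p = 0.00257) or the second WT library of 9 h (0.50, adjusted p = 0.0233), with RLE factors (0.0332) and when only the groups compared were fitted (0.0492). The spike-in scale gave other counts. As with the shares above, those in brackets count genes that differed in either direction. In KO1 2 of the 10 instead of 7 then differed from WT over 3 h, both higher (20.6% of all genes), and 9 over 9 h, all higher (65.3%), where the median gene was at log2 0.35 and 0.91. In KO2 4 were lower over 3 h (5.16%) and 6 over 9 h (16.0%), with the median gene at -0.15 and -0.30. Between the lines 7 were lower in KO2 over 3 h (41.7%) and all 10 over 9 h (74.9%), with the median gene at -0.50 and -1.21.

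**Figure D4:**
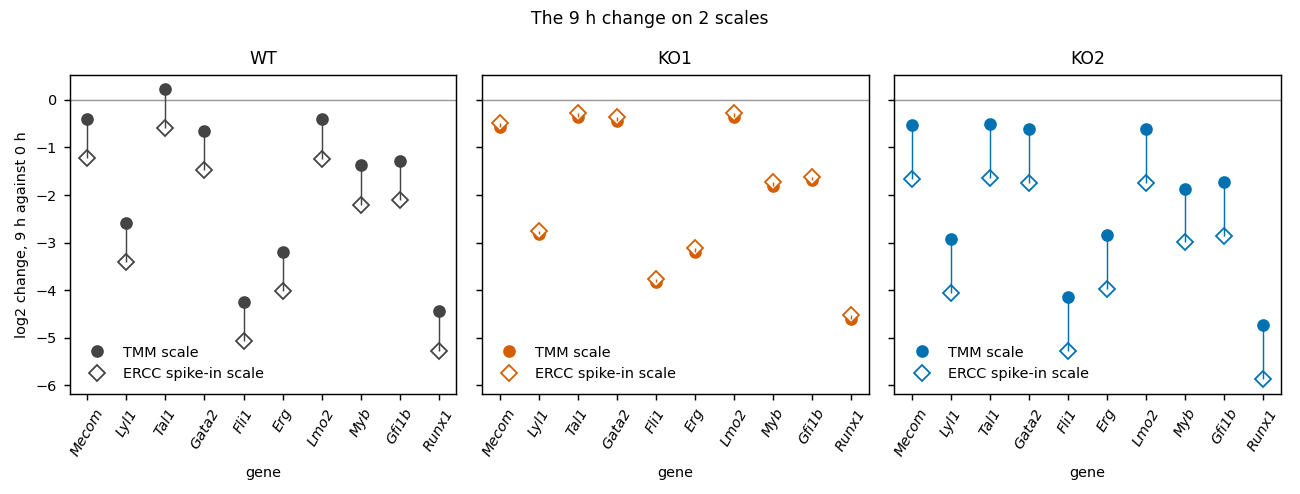
Log2 change from 0 to 9 h of each gene in WT, KO1 and KO2 on the TMM scale (filled circles) and on the ERCC spike-in scale (open diamonds), joined by a line. On the spike-in scale WT and KO2 values lie lower (Mecom at -1.22 instead of -0.39 in WT and -1.66 instead of -0.53 in KO2), KO1 values move little (Mecom at -0.49 instead of -0.57), and Tal1 in WT changes sign, from 0.23 to -0.60.

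Transcripts of the partners of these factors mostly fell relative to other transcripts during the drug. Of 22 partners and corepressors, 21 were tested; 3 rose and 17 fell at 9 h in all 3 genotypes, where 35.2% of all genes tested rose and 33.5% fell in all 3. Their median change was log2 -1.40 in WT beside 0.13 over all genes. Cbfa2t3, the corepressor of Tal1 complexes, changed by log2 -4.13 in WT, -4.16 in KO1 and -4.17 in KO2, and Ssbp2, which stabilises Ldb1, by -3.63, -3.81 and -3.76. Ldb1 itself rose by log2 0.98, 1.35 and 1.41, and the deacetylase Hdac1 by 0.44, 0.56 and 0.58. On the spike-in scale, added after seeing the data, 0 of the 21 rose and 17 fell in all 3 genotypes (14.6% and 33.1% of all genes), Ldb1 was at 0.15, 1.42 and 0.27, and Hdac1 was lower in WT (-0.39) and KO2 (-0.55) and higher in KO1 (0.64). Before the drug, 5 of the 21 partners were higher than WT and 1 lower in both lines, where 8.95% of all genes were higher and 7.77% lower in both. The corepressor Ctbp1 was higher by log2 0.36 in KO1 and 0.46 in KO2, the E protein Tcf4 by 0.19 and 0.41, and Lmo4 by 0.21 and 0.20, while Hdac1 was lower, at -0.11 and -0.15.

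Among 35 other progenitor transcription factors 24 were tested, of which 4 rose and 17 fell at 9 h in all 3 genotypes, against the same 35.2% and 33.5% of all genes (median log2 -1.18 in WT, beside 0.13 over all genes). Myc, the growth regulator, changed by log2 -4.19 in WT, -4.91 in KO1 and -4.71 in KO2, and Meis1, the partner of Hox proteins, by -3.90, -4.54 and -4.53. The myeloid factors Cebpa (2.52, 2.29 and 2.46) and Cebpe (2.38, 2.54 and 2.64) rose, on the spike-in scale too (Cebpa by 1.70, 2.37 and 1.33). The counts on that scale were 2 that rose and 17 that fell (14.6% and 33.1% of all genes). At 0 h 5 of the 24 were higher and 1 lower in both lines (8.95% and 7.77% of all genes). Cebpa was the lower one, at log2 -0.995 in KO1 and -2.06 in KO2. Cebpb was higher by 0.34 and 0.97, Myc by 0.48 and 0.32, and the polycomb protein Bmi1 by 0.44 and 0.36.

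Of 22 genes known as targets of these factors 19 were tested, and here 10 rose and 3 fell at 9 h in all 3 genotypes, against 35.2% and 33.5% of all genes. Their median change was log2 1.77 in WT, 0.96 in KO1 and 1.56 in KO2, beside 0.13, 0.12 and 0.09 over all genes. The survival gene Bcl2 changed by log2 -3.50, -4.13 and -3.69, and the cell cycle kinase Cdk6 by -2.51, -2.62 and -3.00. The cytokine receptor Csf1r rose by 5.94, 6.39 and 7.64 from a level below 1 CPM, and the coreceptor Eng by 3.78, 3.73 and 4.40. By spike-in scaling 7 rose and 3 fell, where 14.6% of all genes rose and 33.1% fell in all 3 genotypes. At 0 h 2 of the 19 were higher and 2 lower in both lines (8.95% and 7.77% of all genes). The platelet genes Pf4 (log2 0.54 in KO1 and 0.96 in KO2) and Itga2b (0.19 and 0.37) were higher. Egfl7, the secreted protein that hosts a microRNA, was lower (-1.09 and -0.84), as was the receptor subunit Csf2rb (-0.20 and -0.14). The lists were not chosen apart from earlier results of these data, and their counts are descriptions.

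AUUUA, a pentamer known from short-lived mRNAs, was counted in the longest annotated 3′ untranslated region of each gene. Runx1 held 14 in 4189 bases and Myb 5 in 1238, or 3.34 and 4.04 per kb, against a median of 1.28 per kb over 20657 genes. Mecom, which stayed at 76.2% of its 0 h CPM in WT after 9 h, held 5 in 1420 bases, or 3.52 per kb. Lyl1 and Tal1 held 0, in 408 and 3030 bases, and stood at 16.7% and 117%. The others held 2.55 per kb in Lmo2, 2.54 in Fli1, 1.95 in Gata2, 1.74 in Gfi1b and 1.22 in Erg. Whether the motif goes with the falls was not tested.

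The genes whose pattern over the 12 groups was closest to that of Mecom were Pyroxd2, Pon3 and Dnm1, with root mean square differences of centred log2 CPM of 0.065, 0.078 and 0.088 among 9634 candidates. Closest to Gata2 were Hps1, Lfng and Ipo9, at 0.061, 0.075 and 0.082. The likeness is over 12 group means that share libraries and scaling, and it is a description.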

How the data were processed

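The tables deposited by the authors, 1 per library, hold counts of read pairs per gene over exons. They were made, per the file headers, with featureCounts 1.6.3 in paired mode without strand on an annotation path naming Ensembl 105 and GRCm39. The submitters' processing notes also name STAR and DESeq2, whose versions are not given in the sources used here. In all, the tables list 55414 gene identifiers and 92 ERCC transcripts, and the exon lengths deposited with them gave TPM. Symbols came from GENCODE M21 (52081 matched), promoters from RefSeq on GRCm38.p6, a build other than that of the counts, and 3′ untranslated regions from GENCODE M21.

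Genes were kept with filterByExpr at a minimum count of 10, which left 16167. TMM factors ran from 0.906 to 1.12. All 24 libraries entered 1 quasi-likelihood fit in edgeR 4.0.16 (R 4.3.3), in which each of the 12 groups had its own coefficient. Calls needed an adjusted p (Benjamini-Hochberg, over all genes tested) under 0.05, and each adjusted p here is edgeR's unless another tool is named. Groups came from sample titles. The labels state 2 biological replicates but not separate cultures, so the p-values reflect only how far these libraries differ, which may be technical. Replicates differed by more than sampling noise (chi-square per degree of freedom 1.43 to 2.31) and were not merged.

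The members and lists were chosen with earlier results of these data known. All 10 members are named. From each list of partners, other factors and targets, up to 3 rises and 3 falls shared by both lines at 0 h and 2 of each shared by 3 genotypes at 9 h are named, at a mean of at least 5 CPM. The lists of mast cell and basophil markers summed to at most 2.19 CPM at 0 h. Alternatives were RLE factors, no filter, DESeq2 1.42.0, a replicate block, fitting only the groups compared, leaving out each library, and ERCC totals as the scale within a genotype. The last of these was planned for changes over time and added after seeing the data for their differences between genotypes. Counts carry no molecular identifiers.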

Additional observations from a re-analysis of the deposited data

Results flagged for a closer look

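The items below are tested differences between genotypes for the 10 genes (edgeR, 1 model over 24 libraries), given as log2 values on the TMM scale.

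Before the drug KO2 differed from KO1 in 7 genes. Gfi1b was higher by 0.70, Mecom by 0.14, Tal1 by 0.20, Gata2 by 0.24 and Lmo2 by 0.24, each also without any 1 library. Fli1 was higher by 0.20 and Erg lower, at -0.23. The Fli1 call did not pass when any 1 of the 4 libraries was left out, with adjusted p between 0.0642 and 0.329. The Erg call did not pass without the second KO1 library (adjusted p = 0.173) or without either KO2 library (adjusted p = 0.0598 and 0.123).

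The change over the first 3 h differed between KO1 and WT by -0.44 for Gfi1b, -0.23 for Lmo2, -0.07 for Mecom, -0.50 for Tal1, -0.56 for Myb, -0.46 for Lyl1 and 0.38 for Erg. Between KO2 and WT it differed by -0.80 for Gfi1b, -0.43 for Lmo2, -0.55 for Tal1, -0.49 for Myb, -0.25 for Lyl1 and 0.41 for Erg. Between the lines the value was 0.21 for Lyl1. Tal1 and Myb passed in both lines whichever library was left out. The KO1 value of Gfi1b was -0.32 without the second KO1 library of 3 h (adjusted p = 0.0897). That of Lmo2 did not pass without either KO1 library of 0 or 3 h, either WT library of 0 h or the first of 3 h (adjusted p between 0.0532 and 0.104). The values of Erg did not pass without the second WT library of 3 h (0.33 in KO1 and 0.37 in KO2, adjusted p = 0.12 and 0.0894). In KO1 the first library of 0 h (0.35) or of 3 h (0.33) had the same effect, and in KO2 the second library of 3 h (0.35). Lyl1 in KO2 against WT was -0.16 without the first KO2 library of 3 h (adjusted p = 0.0584). Lyl1 between the lines was 0.13 without the first KO1 library of 3 h and 0.11 without the second KO2 library of 3 h, and did not pass without the first library of 0 h of KO1 (adjusted p = 0.0517) or KO2 (adjusted p = 0.051) either.

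The change over 9 h differed between KO1 and WT by -0.41 for Gfi1b, -0.17 for Mecom, -0.59 for Tal1, 0.22 for Gata2, -0.42 for Myb and -0.25 for Lyl1. Between KO2 and WT it differed by -0.45 for Gfi1b, -0.22 for Lmo2, -0.14 for Mecom, -0.74 for Tal1, -0.49 for Myb and -0.35 for Lyl1. Between the lines the values were -0.26 for Lmo2, -0.15 for Tal1 and -0.17 for Gata2. Those of Mecom, Tal1, Myb and Lyl1 against WT passed whichever library was left out. Gfi1b did not pass without the second WT library of 9 h, at -0.34 in KO1 and -0.37 in KO2. In KO1 it also failed without the second library of 9 h (-0.32) or the second WT library of 0 h (-0.34), and in KO2 without the second library of 9 h (-0.34). Lmo2 against WT failed without 7 of the 8 libraries compared, KO2 and WT, and moved to -0.12 without the first WT library of 9 h. Between the lines Lmo2 failed without any 1 of the 8 libraries, Tal1 without the second KO1 library of 9 h (-0.09) or the second KO2 library of 0 h (-0.12), and Gata2 without either KO1 library of 9 h or the first of 0 h. With spike-in totals as the scale, the KO1 values over 3 h of Lmo2 (0.114) and Mecom (0.269) and the value of Lyl1 between the lines (-0.304) change sign. All of these values are relative to the other transcripts, and those of KO1 over 9 h change sign with spike-in totals as the scale, except that of Gata2.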

How the results depend on the processing

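A value counts as reversed where its sign changed and either value passed the test. With ERCC totals as the scale, Mecom in WT at 3 h was at log2 -0.478, and Tal1 in WT at -0.295, -0.555 and -0.595 at 3, 6 and 9 h. Differences of change on that scale were chosen after seeing the data, and 2 genes instead of 7 then differed in KO1 over 3 h, and 7 instead of 1 and 10 instead of 3 between the lines over 3 and 9 h. KO1 minus WT reversed over 9 h for Gfi1b (0.493), Lyl1 (0.66), Mecom (0.728), Myb (0.481), Runx1 (0.75) and Tal1 (0.315), and over 3 h for Lmo2 (0.114) and Mecom (0.269). KO2 minus KO1 reversed over 3 h for Erg (-0.483), Lyl1 (-0.304), Mecom (-0.489) and Myb (-0.446), and over 9 h for Erg (-0.854) and Mecom (-1.172). WT libraries held at most 257 spike-in counts, which limits that scale there. In KO1 the median gene on that scale went from log2 -0.34 at 6 h to 0.20 at 9 h, which limits the KO1 values over 9 h.

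RLE factors, DESeq2, no filter, the replicate block and a fit of only the groups compared reversed 0 results each. Of 270 results, DESeq2 ended 12 calls and added 2, no filter ended 7, and RLE ended 2 and added 3. Replicate numbers showed no pairing of the libraries. The log2 CPM difference between replicates 1 and 2 correlated between groups at -0.028 to 0.04 over 66 pairs of groups. The replicate block ended 3 calls, all of Lmo2 (adjusted p = 0.0516, 0.0589 and 0.0663), and added 1, of Gfi1b (0.0419).

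Leaving out 1 library at a time reversed 0 of 1320 results, ended 92 calls and added 14. The genes called ranged over 6 to 7 for KO1 and 6 to 7 for KO2 against WT at 0 h, 5 to 6 for KO2 against KO1, 4 to 5 and 4 to 7 for KO1 and KO2 against WT at 9 h, 7 to 8 for WT at 3 h, 9 to 10 for KO1 and 9 for KO2 at 3 h, and 10 for each genotype at 9 h. For differences of change they ranged over 5 to 6 in KO1 and 5 to 6 in KO2 over 3 h, and 5 to 6 and 4 to 6 over 9 h. At 9 h Runx1, Fli1 and Erg lay at or below 11.3 CPM, where depth limits the precision.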
